A study of Homo sapiens with 2 samples.

Results

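The genes described here are 10 genes that mark alveolar type 2 cells of the lung: the surfactant protein genes SFTPA1, SFTPA2, SFTPB, SFTPC and SFTPD, the protease genes NAPSA and CTSH, and LPCAT1, SLC34A2 and LAMP3. They were taken by symbol, with earlier results of these data known, and all 10 were found among the 27683 gene symbols of the deposited tables. Their levels were measured by RNA-seq in 1 library of H2087 cells and 1 library of H596 cells. Both are untreated, established cell lines that carry the label lung adenocarcinoma, a gland-forming carcinoma. They were grown in the same serum-containing medium, and each library stands for 1 culture of 1 line. Neither line has a replicate, so no test was made and differences are set against counting error alone.

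Alveolar type 2 cells make pulmonary surfactant, the film of phospholipid and protein that lowers surface tension in the air spaces. Its lipids and its hydrophobic proteins, SP-B and SP-C, are packed into lamellar bodies and secreted, while SP-A and SP-D are soluble lectins of the innate defence. The transcription factor NKX2-1 drives many of these genes in the lung, and napsin A and NKX2-1 are used in pathology as markers of lung adenocarcinoma. Levels are given as FPKM (fragments scaled to transcript length and to the number of mapped fragments), which can be compared between genes because they are scaled to length, with a 95% Wilson interval. The total estimated counts were 46961500 in H2087 and 55387847 in H596. At 0 counts, the level that 3 counts would give is stated as the limit of detection.

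In H2087, LPCAT1, both SP-A genes, CTSH, NAPSA and SLC34A2 were expressed and LAMP3 was low, whereas SFTPB, SFTPC and SFTPD, which encode the other surfactant proteins, were at or near 0. In H596 all 5 surfactant protein genes, NAPSA and SLC34A2 were at or near 0, and CTSH, LAMP3 and LPCAT1 were expressed. An FPKM of at least 1 was reached by 7 of the 10 genes in H2087, where 45.3% of all genes reached it, and by 3 of the 10 in H596, where 45.5% did. An FPKM of 100, the level at which the study took genes as highly expressed, was reached by LPCAT1 in H2087 and by CTSH in H596, against 2.54% and 2.3% of all genes. The 10 genes held 49299 counts in H2087, of which LPCAT1 gave 56.6% and the 2 SP-A genes 27.8%. They held 37253 counts in H596, of which CTSH alone gave 86.3%. In the order of levels in H2087, the intervals of CTSH and SFTPA2 overlapped, as did those of SFTPB and SFTPD, and the SFTPD interval reached below the limit of detection of SFTPC. In H596 the intervals of SFTPD and NAPSA overlapped at the low end, as did those of NAPSA and SFTPC.

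**Figure D1:**
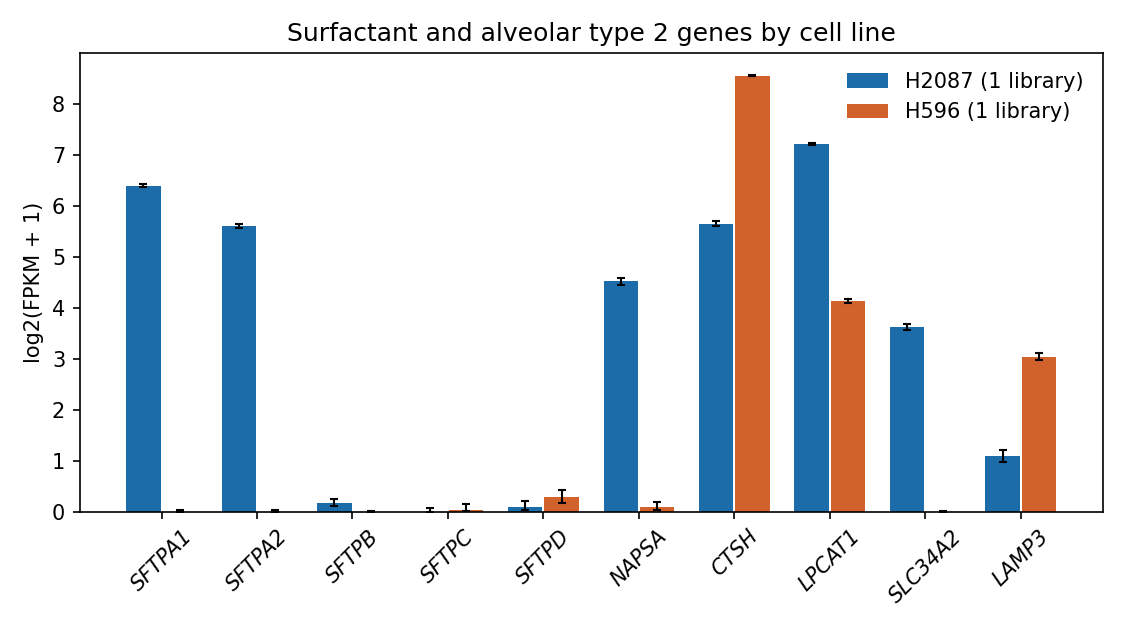
Level of each of the 10 genes as log2(FPKM + 1), in H2087 (blue bars) and H596 (orange bars), 1 library each. Error bars are 95% Wilson intervals of the count, or reach up to the level of 3 counts where the count was 0. Bars of H2087 stand far above those of H596 for SFTPA1, SFTPA2, NAPSA, LPCAT1 and SLC34A2, those of H596 are the taller for CTSH and LAMP3, and SFTPB, SFTPC and SFTPD are near 0 in both.

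SFTPA1 (gene 653509) and SFTPA2 (gene 729238) encode the 2 chains of SP-A, a collectin that binds carbohydrates on microbes. Both lie on chromosome 10 of hg19, SFTPA1 from 81370695 to 81375199 on the plus strand and SFTPA2 from 81315608 to 81320217 on the minus strand, with 50477 bases between them. Because they are near-identical copies, it matters how well reads can be told apart. Over the 747 coding bases of their reference transcripts, each of 6 exons, they differed at 15 positions, an identity of 98.0%. The 60 coding bases with the most differences lie in exon 4 and are printed to show where the genes differ most. They are positions 182 to 241, counted from the A of the start codon. Capitals mark the 6 bases that differ. The SFTPA1 sequence is from chr10:81372077-81372136 on the plus strand, and that of SFTPA2 from chr10:81318693-81318752 on the minus strand, both in GRCh37.
SFTPA1: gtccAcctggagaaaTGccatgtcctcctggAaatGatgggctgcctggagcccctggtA
SFTPA2: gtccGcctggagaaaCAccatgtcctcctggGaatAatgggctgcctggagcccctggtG

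Of the 15 differences, 9 lay in exon 4 and 3 in exon 3. From position 343 to position 605 the coding sequences were identical over 263 bases. Of the 2116 windows of 100 bases in the SFTPA1 reference transcript, 193 (9.12%) also occurred in a SFTPA2 transcript. The share was 9.18% for SFTPA2. A read as long as these windows could therefore be placed on 1 gene over most of either transcript and not in the shared stretch. The read length is not stated in the sources used here.

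**Figure D2:**
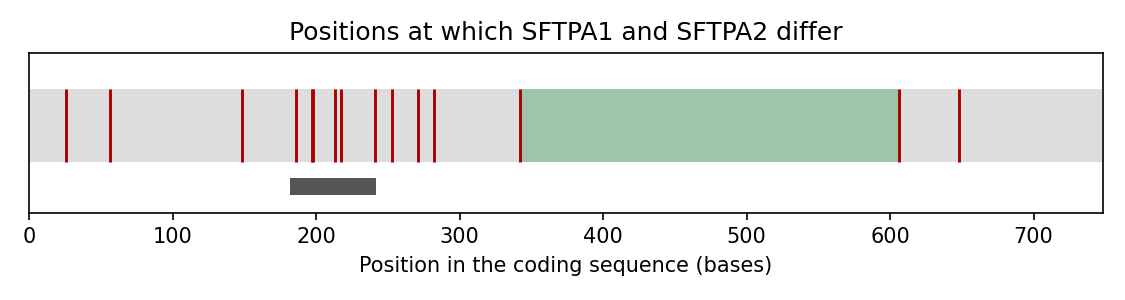
Coding sequence of SFTPA1 and SFTPA2 drawn to scale, with position in bases on the x axis. Red lines are the 15 positions at which the genes differ, the green block is the identical run of 263 bases, and the dark bar marks the 60 bases printed in the text. Only 2 of the differences lie after the identical run.

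In H2087, SFTPA1 had an FPKM of 82.9 (95% interval, 81.1 to 84.6) from 8553 counts, rank 885 among all genes. SFTPA2 had one of 47.6 (46.4 to 49.0) from 5157 counts, rank 1621. The SFTPA1 level was 1.74 times that of SFTPA2, and their sum was 131. In H596 both had 0 counts, where 3 counts would give an FPKM of 0.0246 for SFTPA1 and 0.0235 for SFTPA2. By the share of counts, SFTPA1 was thus at least 3363-fold and SFTPA2 at least 2027-fold higher in H2087, taking 3 counts as the floor in H596. How reads shared by the copies were assigned was not tested. The genes on the outer sides of the pair, EIF5AL1 and LOC105378385, had at most 30 counts in either library.

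Most SFTPA1 signal was assigned to 1 of its 6 listed transcripts. NM_001164647 held 86.1% of the FPKM of the gene in H2087 and NM_005411 held 10.9%, while NM_001164644 and NM_001164646 had 0 counts. The listed SFTPA1 transcripts share both ends and differ in length only from 2060 to 2215 bases. For SFTPA2, NM_001320813 held 75.1% and NM_001098668 held 23.5%. How the counts were divided between overlapping transcripts is an estimate, whose error is outside the counting intervals.

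SFTPD (gene 6441), on chromosome 10 from 81697496 to 81708861, encodes SP-D, the other surfactant collectin. It had 5 counts in H2087, an FPKM of 0.0650 (0.0278 to 0.152), and 16 counts in H596, an FPKM of 0.215 (0.132 to 0.349). By share of counts H596 was 2.71-fold higher, with an exact interval of 0.95 to 9.47 that includes no difference. It lies 322296 bases beyond SFTPA1, and its level in H2087 was far below those of the SP-A genes. The genes beside it, BMS1P21 and TMEM254-AS1, had at most 87 counts in either library. The 4 other collectin genes examined, MBL2, COLEC10, COLEC11 and COLEC12, had at most 14 counts in either library.

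SFTPB (gene 6439), on chromosome 2 from 85884440 to 85895864, encodes SP-B, the surfactant protein without which the newborn lung cannot function. It had 22 counts in H2087, an FPKM of 0.123 (0.0813 to 0.186), all assigned to NM_000542. In H596 it had 0 counts, where 3 would give an FPKM of 0.0142. SFTPB was therefore detected in H2087, at least 8.65-fold above the floor of H596, but SFTPA1 stood 673 times higher than it in the same library. The nearest gene before it, USP39, had an FPKM of 62.6 in H2087 and one of 38.5 in H596, and the nearest after it, GNLY, a cytotoxic granule gene of lymphocytes, had 0 counts in both.

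The bases before the annotated start of these genes are printed because SP-A genes and SFTPB, both known targets of NKX2-1 in the lung, differed so widely within 1 library. Each run is the 250 bases before a start, 5′ to 3′ on the strand of the gene, from RefSeq in GRCh38.p14. The SFTPA1 run is chr10:79610689-79610938 (plus strand), that of the first SFTPA2 start chr10:79560408-79560657 (minus), that of the first NAPSA start chr19:50369303-50369552 (minus), and those of the 2 SFTPB starts chr2:85668742-85668991 and chr2:85668200-85668449 (minus). SFTPA2 and NAPSA each have a second start, whose run is not printed. Capitals mark matches to CTCAAG, the core of the NKX2-1 motif, to TGTTTAC, a forkhead motif, or to TATAAA, each searched on both strands, so that CTTGAG and GTAAACA are matches on the other strand.
SFTPA1: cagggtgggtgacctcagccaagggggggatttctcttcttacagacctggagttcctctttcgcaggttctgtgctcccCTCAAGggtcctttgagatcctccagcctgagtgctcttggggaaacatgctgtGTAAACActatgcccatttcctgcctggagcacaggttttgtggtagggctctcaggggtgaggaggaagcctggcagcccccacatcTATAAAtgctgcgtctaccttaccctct
SFTPA2: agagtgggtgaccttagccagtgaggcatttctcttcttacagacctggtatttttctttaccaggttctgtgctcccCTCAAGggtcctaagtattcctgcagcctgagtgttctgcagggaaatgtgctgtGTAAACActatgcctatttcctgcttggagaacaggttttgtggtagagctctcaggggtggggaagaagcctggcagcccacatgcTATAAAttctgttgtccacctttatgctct
NAPSA: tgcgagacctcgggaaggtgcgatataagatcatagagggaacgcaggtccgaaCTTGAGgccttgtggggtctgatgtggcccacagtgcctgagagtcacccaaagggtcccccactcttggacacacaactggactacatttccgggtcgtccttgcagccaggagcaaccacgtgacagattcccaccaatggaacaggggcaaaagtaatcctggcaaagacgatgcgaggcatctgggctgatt
SFTPB, first start: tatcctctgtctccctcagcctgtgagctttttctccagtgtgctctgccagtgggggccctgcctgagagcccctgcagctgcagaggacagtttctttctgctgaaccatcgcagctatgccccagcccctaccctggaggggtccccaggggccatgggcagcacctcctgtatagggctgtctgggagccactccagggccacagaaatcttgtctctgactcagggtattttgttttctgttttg
SFTPB, second start: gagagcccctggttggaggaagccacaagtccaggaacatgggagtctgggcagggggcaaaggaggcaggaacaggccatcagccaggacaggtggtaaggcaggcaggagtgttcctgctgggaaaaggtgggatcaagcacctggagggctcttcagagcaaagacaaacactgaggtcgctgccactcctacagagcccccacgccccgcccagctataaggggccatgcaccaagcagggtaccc

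Aligned with gaps, the SFTPA1 and SFTPA2 runs were identical at 214 positions (83.9%), with 31 mismatches and 10 gaps, whereas SFTPA1 and the first SFTPB run, 2 sequences of unrelated genes, aligned at 50.7%. The printed SP-A runs shared the 3 motifs in the same order. Counted back from the start, CTCAAG began at -170 in SFTPA1 and at -172 in SFTPA2, GTAAACA at -116 and -117, and TATAAA at -28 and -30. Of all 35116 promoter runs of this length, 10.4% held CTCAAG on either strand, 2.98% the forkhead motif and 10.7% TATAAA. Among the 12 runs found for 8 of the 10 genes, CTCAAG was in 3, the printed runs of SFTPA1, SFTPA2 and NAPSA. The forkhead motif was in the 2 printed SP-A runs. TATAAA was in 3, those 2 and the second start of SLC34A2. TTGCNNAA, a C/EBP motif, was in 2 of the 12 (SLC34A2 and SFTPD) and in 9.05% of all runs. These exact letters were not found in either SFTPB run, nor in the second starts of SFTPA2 and NAPSA. Variants of the motifs were not searched, so sites with other letters would be missed. The motifs were chosen after the sequences had been seen, and a match is a description of the sequence only.

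NAPSA (gene 9476), on chromosome 19 from 50861729 to 50869087, encodes napsin A, an aspartic protease that takes part in the maturation of SP-B. It had an FPKM of 21.9 (20.9 to 23.0) in H2087 from 1634 counts, rank 3499, and one of 0.0645 (0.0296 to 0.141) in H596 from 6 counts. The share of counts was 321-fold higher in H2087, with an exact interval of 147 to 877. Its pseudogene neighbour NAPSB, 13723 bases away, had 0 counts in both libraries. Of the 100-base windows of NAPSA, 12.2% also occur in annotated transcripts of NAPSB or NR1H2. NR1H2, the next gene on the other side, ran the other way, with 1495 counts in H2087 and 3610 in H596. Among the other aspartic protease genes examined, PGC had 0 counts in both, BACE2 had the largest difference towards H2087, with an FPKM of 8.45 against 1.91, and CTSD, the cathepsin D of lysosomes, had an FPKM of 263 in H2087 and one of 1075 in H596.

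CTSH (gene 1512), on chromosome 15 from 79214092 to 79237440, encodes cathepsin H, a lysosomal aminopeptidase that also acts on SP-B and SP-C precursors. Unlike NAPSA it was the higher in H596, where its FPKM was 373 (369 to 377) from 32142 counts, rank 137 among all genes. In H2087 it had one of 49.0 (47.4 to 50.7) from 3587 counts. H596 was thus 7.60-fold higher by share of counts, with an exact interval of 7.34 to 7.87. NM_004390 held 96.9% of the CTSH signal in H2087 and 97.9% in H596, so that the same transcript prevailed in both lines.

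The other cathepsin genes did not all follow CTSH. Of 12 other cathepsin genes, 10 had a mean FPKM of at least 1. Of these, 5 were at least 2-fold higher in H596, as were 18.2% of all genes that passed this filter. Among the 5, CTSK passed through H596 alone. Another 2 of the 10 were at least 2-fold higher in H2087, as were 14.2% of all genes that passed, and 3 were within 2-fold. On the log2(FPKM + 1) scale, the largest difference towards H596 was that of CTSD, the highest of them in H596. CTSC, which activates granule proteases, had the largest towards H2087 and was the highest there, with an FPKM of 290 in H2087 and one of 66.2 in H596. Next to CTSH on the chromosome, MORF4L1 had an FPKM of 122 in H2087 and one of 265 in H596, and RASGRF1 one of 3.99 and 0.913.

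LPCAT1 (gene 79888), on chromosome 5 from 1461538 to 1524092, encodes the acyltransferase that makes the saturated phosphatidylcholine of surfactant and that is also expressed outside the lung. It was the highest of the 10 genes in H2087, with an FPKM of 147 (145 to 149) from 27918 counts, rank 465. In H596 it had one of 16.5 (16.0 to 17.0) from 3714 counts. H2087 was 8.87-fold higher by share of counts (exact interval, 8.57 to 9.18). MIR6075, which the tables place inside LPCAT1, had 1 count in H2087 and 0 in H596. Of the neighbours of LPCAT1, SDHAP3 did not show such a difference, with an FPKM of 7.06 in H2087 and one of 8.59 in H596. SLC6A3 had 11 counts in H2087 and 4 in H596, an FPKM of 0.0567 and one of 0.0147, too few to compare.

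LPCAT1 was set beside 18 other genes of phosphatidylcholine synthesis and transfer. Of these, 17 had a mean FPKM of at least 1, of which 1 was at least 2-fold higher in H2087 and 0 in H596, against 14.2% and 18.2% of all genes that passed this filter, and 16 were within 2-fold, with a median difference of -0.04 on the log2(FPKM + 1) scale, H2087 minus H596. The gene past 2-fold was PLA2G6, a phospholipase, with an FPKM of 8.20 in H2087 and one of 2.01 in H596. The largest difference towards H596, within 2-fold, was that of GPAM, an acyltransferase of the first step of glycerolipid synthesis, with an FPKM of 2.15 in H2087 and one of 3.72 in H596. PRDX6, a peroxiredoxin with phospholipase activity, was the highest of the list in both, with an FPKM of 175 in H2087 and one of 141 in H596. The LPCAT1 paralogs LPCAT2, LPCAT3 and LPCAT4 had FPKM values of 3.98, 17.9 and 40.2 in H2087 against 2.92, 12.7 and 43.2 in H596. PCYT1A, the enzyme that limits the rate of this pathway, had an FPKM of 22.2 in H2087 and one of 25.4 in H596.

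SLC34A2 (gene 10568), on chromosome 4 from 25657435 to 25680368, encodes the sodium-phosphate cotransporter NaPi-IIb of the apical membrane of type 2 cells. In H2087 its FPKM was 11.3 (10.8 to 11.7) from 2241 counts, rank 5796, so that LPCAT1 was 13.0 times higher in this library. In H596 it had 0 counts, where 3 would give an FPKM of 0.0128, and H2087 was at least 881-fold higher by share of counts. Transcripts NM_006424 and NM_001177998 divided its signal nearly evenly, with 51.7% and 46.3%. Of the other phosphate carriers, SLC34A1 and SLC34A3 had at most 35 counts, while SLC20A1 had an FPKM of 55.2 in H2087 and one of 8.10 in H596, and XPR1, a phosphate exporter, 7.72 and 18.2. The neighbour SEL1L3 had an FPKM of 44.1 in H2087 and one of 24.5 in H596, and LOC101929161 on the other side 0 counts in both.

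LAMP3 (gene 27074), on chromosome 3 from 182840003 to 182880667, encodes a lysosomal membrane protein found in lamellar bodies, and also in mature dendritic cells. Its FPKM was 1.13 (0.979 to 1.31) in H2087 from 182 counts and 7.24 (6.86 to 7.63) in H596 from 1373 counts. H596 was 6.40-fold higher by share of counts (exact interval, 5.48 to 7.51). The H2087 interval reaches below an FPKM of 1, so its place among the genes at that level lies within counting error. LAMP1 and LAMP2, the common members of this family, had FPKM values of 88.6 and 16.5 in H2087 against 118 and 55.8 in H596, so LAMP3 stood at 1.28% of LAMP1 in H2087. CD68, a member that is also high in macrophages, had an FPKM of 128 in H2087 and one of 25.6 in H596. The genes beside LAMP3 were MCCC1, with an FPKM of 42.1 in H2087 and one of 82.8 in H596, and MCF2L2, with one of 1.11 and 0.0622.

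SFTPC (gene 6440), on chromosome 8 from 22019184 to 22021991, encodes SP-C, whose expression in the lung is the most restricted to type 2 cells. It had 0 counts in H2087, where 3 would give an FPKM of 0.0532. In H596 it had 2 counts, an FPKM of 0.0301 (0.00825 to 0.110), all in 1 of its 6 listed transcripts. Both values are at or below the limit of detection, and no fold is given. Its neighbours were LGI3, also a type 2 cell gene, with 0 and 6 counts, and BMP1, a metalloprotease gene, with an FPKM of 3.27 in H2087 and one of 24.9 in H596. Set against the name of type 2 cell genes, H2087 had the SP-A genes, NAPSA, SLC34A2, LPCAT1 and CTSH, with LAMP3 low. It had 0 counts of SFTPC, the gene of the defining marker, and SFTPB and SFTPD were near 0. H596 had CTSH and LAMP3 at higher levels than H2087 and LPCAT1 at a lower one. None of the surfactant protein genes was above 16 counts in H596.

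**Figure D3:**
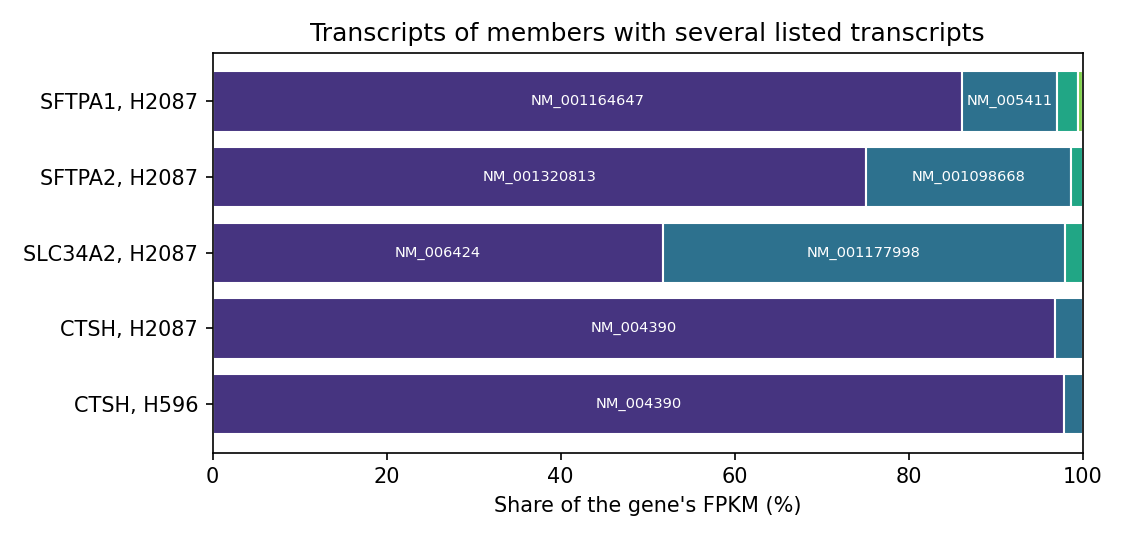
Share of the FPKM of a gene held by each listed transcript, in percent, for the genes with several listed transcripts and an FPKM of at least 1 in that library. Transcripts with at least 10% are named. SFTPA1 and SFTPA2 are dominated by 1 transcript, SLC34A2 is divided nearly evenly, and CTSH has the same main transcript in H2087 and H596.

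Counted on the log2(FPKM + 1) scale, 7 of the 10 genes had a mean FPKM of at least 1. Of these, 5 (SFTPA1, SFTPA2, NAPSA, LPCAT1 and SLC34A2) were at least 2-fold higher in H2087, as were 14.2% of the 13047 genes that passed this filter, and 2 (CTSH and LAMP3) were at least 2-fold higher in H596, as were 18.2%. The differences, H2087 minus H596, ran from 6.39 for SFTPA1, 5.60 for SFTPA2, 4.43 for NAPSA, 3.62 for SLC34A2 and 3.08 for LPCAT1 to -1.95 for LAMP3 and -2.90 for CTSH. Their median was 3.62, against -0.12 over all genes that passed. SFTPA1, SFTPA2, SLC34A2 and NAPSA passed the filter through H2087 alone and so had to differ, and the counts and the median are no more than a description. With all 10 genes, the 3 low ones included, the median was 1.62.

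Other genes of type 2 cells were also mixed. Of 20 genes listed as such, 10 had a mean FPKM of at least 1, of which 7 were at least 2-fold higher in H2087, 1 was at least 2-fold higher in H596 and 2 were within 2-fold, beside the 14.2% and 18.2% of all genes. Of the 7, SFTA3, ETV5, TFPI, SLC22A31 and ABCA3 passed the filter through H2087 alone, so the count is a description. ABCA3, the transporter that loads phospholipid into lamellar bodies, had an FPKM of 10.6 in H2087 and one of 0.640 in H596, which is 16.6-fold lower. SFTA3, a gene next to NKX2-1 on chromosome 14, had the largest difference towards H2087, with an FPKM of 101 against 0.0304. FABP5, a fatty acid binding protein, was the highest of the list in both libraries, with an FPKM of 101 in H2087 and one of 10.3 in H596, although in H2087 it and SFTA3 were within counting error of each other. CPM, a carboxypeptidase of the type 2 cell surface, went towards H596, with an FPKM of 1.83 in H2087 and one of 5.03 in H596. PGC, WIF1 and CRTAC1 had 0 counts in both, and HHIP, CD36, CSF3R and LGI3 had 0 in H2087 and at most 31 in H596.

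The transcription factors known to act on these genes differed between the lines one by one. NKX2-1, the lung and thyroid homeobox factor, had an FPKM of 110 in H2087 and one of 0.508 in H596, a 217-fold difference. FOXA2, a forkhead factor, had an FPKM of 30.5 against 0.116 (262-fold), whereas its paralog FOXA1 had 32.2 against 44.5. ETV5, an ETS factor that maintains type 2 cells, had an FPKM of 37.0 against 0.0901 (410-fold). These 3 were higher in H2087, where the SP-A genes were expressed and SFTPB was near 0. Their part in the levels of these genes was not tested.

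CEBPD, a factor of the C/EBP family, was 8.06-fold higher in H2087, with an FPKM of 137 against 17.0. CEBPA, the family member that acts in type 2 cell maturation, went the other way, with an FPKM of 0.349 from 45 counts in H2087 and 9.50 in H596, as did GATA6 (1.03 against 5.53) and KLF5 (15.8 against 113). TCF7L2 and NFIB were 2.94-fold and 3.32-fold higher in H2087, with FPKM values of 8.71 and 6.19 there and 2.96 and 1.86 in H596. SREBF1, the regulator of lipid synthesis, had an FPKM of 46.4 in H2087 and one of 42.6 in H596, and STAT3 one of 26.2 and 39.7. ELF3, an epithelial ETS factor and the highest of the list in both libraries, had an FPKM of 197 and 330. Of the 13 factors with a mean FPKM of at least 1, 6 were at least 2-fold higher in H2087 and 3 in H596, and 4 were within 2-fold. The shares of all genes were the same 14.2% and 18.2%. NKX2-1, FOXA2 and ETV5 passed the filter through H2087 alone and CEBPA through H596 alone, so the counts are a description.

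**Figure D4:**
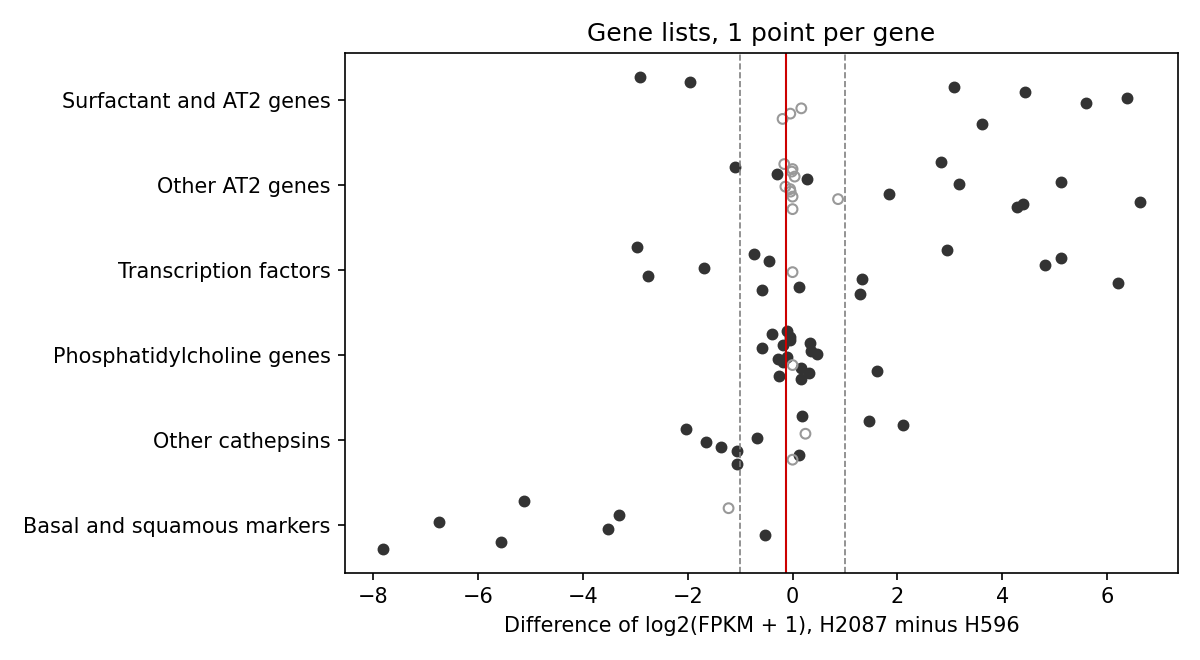
Difference of log2(FPKM + 1), H2087 minus H596, with 1 point per gene and 1 row per gene list. Filled points have a mean FPKM of at least 1 and open points a lower one, dashed lines mark 2-fold and the red line the median of all genes that passed, -0.12. The 10 surfactant and type 2 cell genes spread from 6.39 to -2.90, 16 of the 17 filled phosphatidylcholine genes lie between the dashed lines, and all the basal and squamous markers are negative.

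Markers of other cell types were examined beside these results. Of 8 markers of basal and squamous cells, 7 had a mean FPKM of at least 1. Of these, 6 were at least 2-fold higher in H596, beside 18.2% of all genes that passed this filter. Of the 6, KRT5, TP63, NGFR, DSG3 and TRIM29 passed through H596 alone and so had to differ, and the count is a description. The summed FPKM of the 8 markers was 69.1 in H2087 and 797 in H596. KRT5, a keratin of basal cells, had 0 counts in H2087 and an FPKM of 106 in H596, and TP63, the transcription factor of squamous epithelium, one of 0.183 and 55.2. KRT15 was the highest of these markers in H596 and SOX2 in H2087, with FPKM values of 29.8 and 39.1 in H2087 against 306 and 56.5 in H596, and TRIM29 had the largest difference, from 3 counts in H2087 to an FPKM of 227 in H596. Although labelled lung adenocarcinoma, the H596 library was thus near 0 for napsin A and NKX2-1 and high in squamous markers, and the part of this in the levels of the 10 genes was not tested. Fewer cells of a type and less RNA per cell cannot be told apart in such bulk libraries.

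Other sources of CTSH, LAMP3 and CD68 RNA were looked for by their markers. None of 10 macrophage markers reached an FPKM of 1 in either library: their summed FPKM was 0.568 in H2087 and 0.435 in H596, and PTPRC, C1QA, C1QB and FCGR1A had 0 counts in both. CD14 was the highest in H2087 and had the largest difference in that direction, with an FPKM of 0.421 against 0.157, and MARCO was so in H596, with 0 counts against an FPKM of 0.182. The 6 stromal markers summed to 4.39 in H2087 and 10.7 in H596, and 2 passed the filter. COL1A1 was the highest in H2087, with an FPKM of 3.89 against 0.916, and DCN in H596, with 0 counts against an FPKM of 9.77, while COL1A2 had 0 counts in both. The 5 endothelial markers summed to 2.57 and 1.02, and 1 passed. KDR was the highest in H2087, with an FPKM of 2.16 against 0.201, VWF in H596, with 0.0589 against 0.489, and CLDN5 had 0 counts in both. The part of these markers in the levels of CTSH, LAMP3 and CD68 was not tested.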

How the data were processed

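RNA-seq data of 1 library of H2087 cells and 1 of H596 cells were processed. Per the labels and methods, total RNA went into stranded mRNA libraries that were read on an Illumina HiSeq4000. The submitters' processing notes name bcl2fastq 1.8.4, Trimmomatic, HISAT2 2.0.5 and StringTie 1.3.3b, with hg19 as the genome. The estimated counts, given as whole numbers, and the FPKM values were made with these tools and deposited by the authors for 27685 genes and 63714 transcripts. How the counts were derived from the abundance estimates, the read length and the use of strand are not given in the sources used here.

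From these tables, the rows of the 10 genes were taken by symbol, with the larger row kept where a symbol was listed more than once. FPKM was used as deposited. Intervals are 95% Wilson intervals of a count over its library total, scaled to FPKM. Ratios of count shares have exact conditional (Clopper-Pearson) intervals, with 3 counts per library as the floor at 0. These cover counting error only. Differences are of log2(FPKM + 1), which understates changes of low genes, for genes whose FPKM averaged at least 1 over the libraries. No test or p-value was computed, because each line had 1 library. The 10 genes, the gene lists and the alternatives were chosen with earlier results of these data known. The genes named are the 10 genes, their transcripts with at least 10% of the FPKM, the neighbouring genes, the listed transcription factors except 1 that is not reported here, and for each other list the gene with the highest FPKM in each library and the one with the largest difference of log2(FPKM + 1) in each direction. MBL2, COLEC10, COLEC11, COLEC12, PCYT1A, LPCAT2, LPCAT3, LPCAT4, ABCA3, LAMP1, KRT5, TP63 and others given beyond that rule, among them the genes at 0 counts, were chosen after their values were seen.

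Coding sequences and windows of 100 bases are from GENCODE release 44 mapped to GRCh37, the build of the files. Promoter sequences are from RefSeq (GRCh38.p14), which gave 12 starts for 8 of the 10 genes. Alternatives used edgeR 4.0.16 in R 4.3.3 for TMM scaling. The intervals and 2-fold calls were tested on data simulated with counting error alone. Such data hold no variation between cultures, so they cannot show how the calls fare against it. Python 3.11.15, numpy 2.4.6, pandas 2.3.3 and scipy 1.17.1 were used.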

Additional observations from a re-analysis of the deposited data

How the results depend on the processing

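The counts of genes past a threshold, the median difference and the difference of each gene were recomputed under the alternative settings, which gave 82 values, 40 of them for single genes under 4 settings. Of the 82, 40 changed little (counts by under 1.5 times, values by less than counting error), 42 moved the result and 0 reversed a direction. A count of genes past a threshold has no direction, so only the median and the single-gene values could have reversed. No paired analysis was possible because neither line has a second library, which also left nothing to leave out. TMM scaling shifted the median of all genes by 0.11 on the log2 scale. The 5 genes at least 2-fold higher in H2087 were 4 with a mean FPKM of at least 10 or with the SP-A genes summed, and 5 otherwise. The 2 genes higher in H596 were 1 with a mean FPKM of at least 10, which leaves out LAMP3, and 1 at 4-fold, since LAMP3 is below it on this scale. The share of all genes past 2-fold was 12.9% towards H2087 and 24.6% towards H596 with TPM, against 14.2% and 18.2%.

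The median difference was 3.62. The medians of the lower and of the upper counting limits of the genes were 3.54 and 3.67, which is not an interval of the median itself. The median difference became 6.83 with a pseudocount of 0.1, 4.43 with a mean FPKM of at least 10 and 1.62 with no filter. It was 5.08 with TMM-scaled counts, 4.65 with TPM, 3.73 with centring, 3.08 with the highest single transcript and 3.35 with the SP-A genes summed. In H2087 the 1 gene at an FPKM of 100 or more became 4 with TPM, 2 at a threshold of 50 and 0 at 200. Depth limits the statements on SFTPB, SFTPC and SFTPD, which had at most 22 counts.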

Other observations

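Among the markers of alveolar type 1 cells, the thin cells of the gas exchange surface that type 2 cells can give rise to, the lines again differed gene by gene. The summed FPKM of 10 such genes was 108 in H2087 and 352 in H596, and 8 had a mean FPKM of at least 1. Of these, 1 was at least 2-fold higher in H2087, as were 14.2% of all genes that passed this filter. Another 4 were at least 2-fold higher in H596, as were 18.2%, and 3 were within 2-fold. HOPX passed the filter through H2087 alone and CLIC5 through H596 alone, so the counts are a description. HOPX, a homeobox cofactor, had an FPKM of 24.7 in H2087 and 0 counts in H596, which is at least 665-fold higher by share of counts. CAV1, the caveolin of flat cells, was the highest of the list in H596 and had the largest difference in that direction on the log2(FPKM + 1) scale, with 2512 counts in H2087 and 31139 in H596. CLIC5, a chloride channel protein, had 0 counts in H2087 and 752 in H596, at least 213-fold higher by share of counts. GPRC5A was the highest in H2087, with an FPKM of 31.9 against 54.5, and PDPN had 0 counts in both.

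Airway markers were also divided between the lines. The 8 club cell genes summed to an FPKM of 75.1 in H2087 and one of 29.5 in H596, and the 8 genes of ciliated cells to 21.7 and 12.2. SCGB1A1, the secretoglobin of club cells, had 0 counts in H2087 and 413 counts in H596, an FPKM of 16.1, and was the highest of the club cell genes there. WFDC2, a secreted protease inhibitor, was the highest in H2087, with an FPKM of 63.7 against 0.113. Among the ciliated cell genes, FOXJ1, the regulator of motile cilia, had the highest level and, on the log2(FPKM + 1) scale, the largest difference in H2087, with an FPKM of 9.07 against 0.331, and CAPS was so in H596, with 2.87 against 9.60. TEKT1, a structural protein of cilia, had 0 counts in both libraries.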
